A study of Homo sapiens with 12 samples.

Results

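The comparison described here set MiaPaCa-2 cells transfected with an siRNA against ACLY beside MiaPaCa-2 cells transfected with an siRNA against ACO1, with no control library in the contrast. Its members were the 3 siACLY and the 3 siACO1 libraries, chosen by their columns in the deposited count table, so 6 of the 12 libraries of the series. MiaPaCa-2 is an established human pancreatic cancer line. The series, whose title concerns citrate and ferroptosis, also held 3 siControl and 3 siSLC25A1 libraries of the same line, and siRNA transfection is what all 4 groups share. The siRNA sequences, the time after transfection and the composition of the medium are not given in the sources used here, and the labels do not say whether the replicates were separate cultures. The p-values therefore measure the spread between these libraries, which may be technical.

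ATP citrate lyase, the product of ACLY, cleaves citrate in the cytosol; the acetyl-CoA released feeds fatty acid synthesis, cholesterol synthesis and protein acetylation. Cytosolic aconitase, the product of ACO1, turns the same citrate into isocitrate, which IDH1 then oxidises to 2-oxoglutarate with production of NADPH. Aconitase also needs an iron-sulfur cluster. Without the cluster the protein is iron regulatory protein 1, which binds hairpins called iron-responsive elements: it slows translation of the ferritin messages and protects the transferrin receptor message from decay. Each siRNA is thus aimed at a different consumer of the same metabolite, and the siRNA against ACO1 also at an RNA-binding protein.

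Library totals ran from 25438086 to 43792811 counts in siACLY and from 24159424 to 31315425 counts in siACO1. The libraries of each group differed by more than sampling noise, so each was counted as a replicate (chi-square per degree of freedom 2.31 for siACO1 replicates 1 and 2, 3.02 to 4.05 among the siACLY replicates). The third siACO1 library stood apart from the other two, at 11.8 and 12.5. Its deviation from them followed transcript length across 11923 genes (Spearman correlation -0.43, genes not being independent), and results that change without it are given with both values. Markers of pancreatic epithelium were mixed in all 6 libraries: KRT8, KRT18 and KRT19 were abundant, whereas CDH1, EPCAM, GATA6 and KRT7 had at most 10 counts in any library of the series and KRT17 had 0. Of the other cell types, PTPRC and CD3E (leukocytes), KDR (endothelium) and the 6 acinar and islet markers were at 0 in both groups. The rest of the 6 leukocyte and 4 endothelial markers had some counts. In CPM, defined in the next paragraph, the leukocyte markers summed to 2.38 to 2.78 in siACLY and 2.83 to 3.18 in siACO1. The endothelial markers summed to 0.347 to 0.427 in siACLY and 0.0321 to 0.161 in siACO1. Of these, 2 leukocyte markers (log2 differences -0.92 and 0.04) and 0 endothelial markers were tested, and none differed at an adjusted p under 0.05. Of 6 fibroblast markers only COL1A2 was measured well enough to test.

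The labels held for both targets. ACLY (chr17:41866908-41930542, minus strand of GRCh38) measured 36.4, 36.4 and 35.5 CPM in siACLY and 509, 509.8 and 497 CPM in siACO1, where CPM are the counts scaled to each library's total and by the trimmed mean of M values (TMM). The 2 groups did not overlap, and siACO1 lay at the siControl level of 499 ± 7.55 CPM (mean ± SD, n = 3). The log2 difference, siACLY minus siACO1, was -3.80 ± 0.04, adjusted p = 3.74e-32. ACO1 (chr9:32384603-32454769, plus strand) showed the opposite order, with 51.1, 50.9 and 49.3 CPM in siACLY and 1.57, 2.05 and 1.41 CPM in siACO1. Its log2 difference was 4.90 ± 0.09, adjusted p = 2.91e-26, and siACLY stood slightly above siControl, by 0.17 (adjusted p = 0.0239). SLC25A1, the mitochondrial citrate carrier that supplies both enzymes, measured 133, 129 and 132 CPM in siACLY and 120.05, 121 and 135 CPM in siACO1. The groups overlapped through the third siACO1 library, and the log2 difference was 0.06 ± 0.05, adjusted p = 0.312. Without that library it was 0.12 with an adjusted p of 0.0240. All errors of log2 differences are standard errors of the edgeR quasi-likelihood fit, and all adjusted p-values are Benjamini-Hochberg values over every gene tested in that fit.

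**Figure D1:**
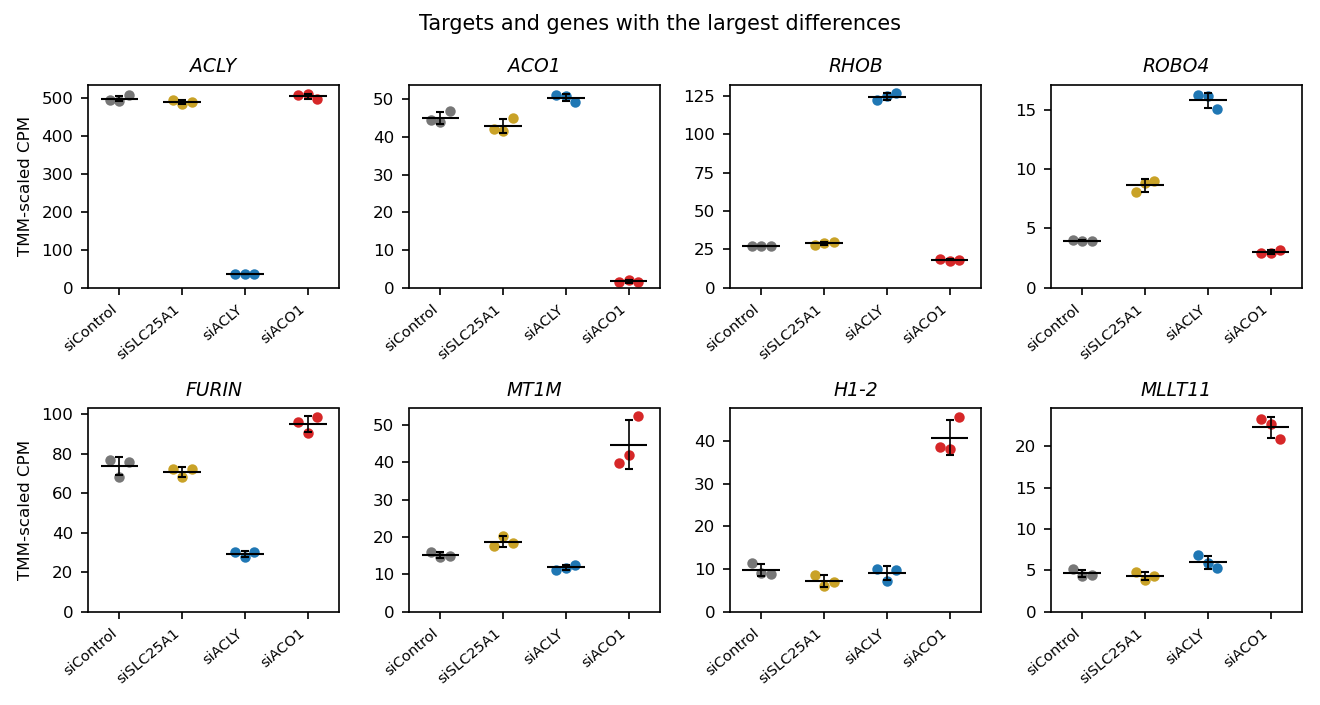
Levels of both targets and of 6 genes with large differences, in TMM-scaled CPM (y axes, linear, from 0) in the 4 groups; points are libraries, and bars are the mean ± SD of 3. RHOB and ROBO4 were highest in siACLY, whereas MT1M, H1-2 and MLLT11 were highest in siACO1, with siControl and siSLC25A1 lower in each case.

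The knockdowns differed widely, mostly by small amounts. Of 16197 genes tested, 6823 differed (42.1%) at an adjusted p under 0.05, of which 3469 (21.4%) were higher in siACLY and 3354 (20.7%) were lower. The median absolute log2 difference of these genes was 0.37. A difference of at least 2-fold was found for 848 genes (5.24%), 572 higher and 276 lower in siACLY. With at least 10 counts asked of every library, these became 453 genes, 319 higher and 134 lower. Because so many genes differed, the counts in the pathway lists below are read against these percentages. In separate contrasts that share the siControl libraries, 18.4% of genes were higher and 18.3% lower in siACLY, and 17.8% were higher and 19.3% lower in siACO1.

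**Figure D2:**
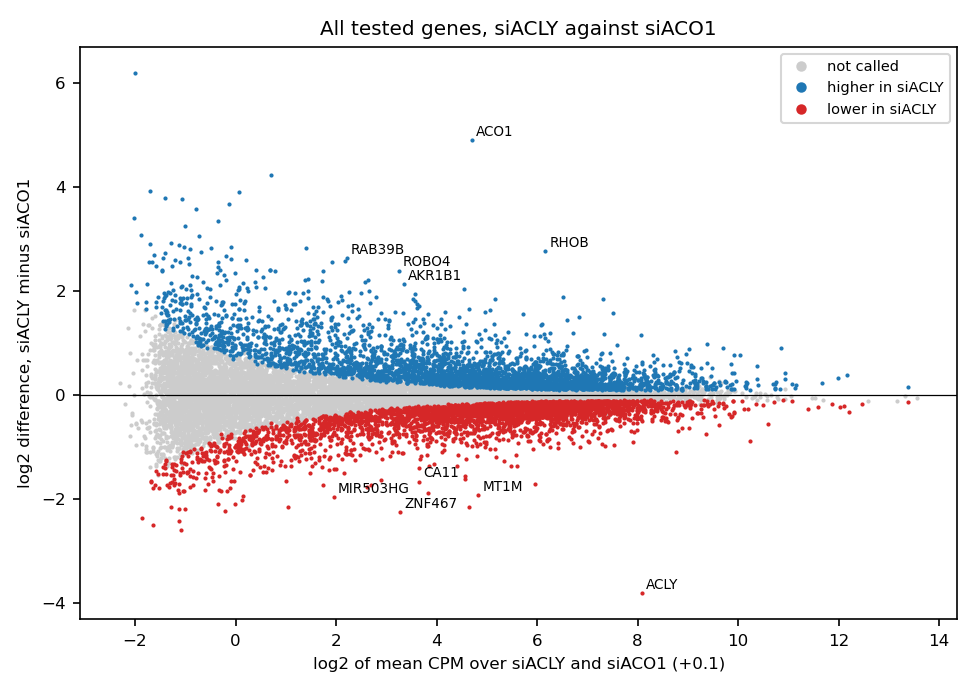
Log2 difference siACLY minus siACO1 (y axis) against the log2 of the mean CPM of both groups (x axis), 1 point per tested gene, with some of the named genes labelled. The 3469 genes higher in siACLY and the 3354 lower in siACLY lie on both sides of 0, with 572 and 276 of them at least 2-fold apart, and ACLY and ACO1 stand at the edges among well-measured genes.

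Among genes averaging at least 5 CPM in the higher group, those highest in siACLY relative to siACO1 were led, after ACO1 itself, by RHOB, a small GTPase that acts on actin and on endosomes (chr2:20447074-20449445, plus strand). RHOB measured 122, 125 and 127 CPM in siACLY and 18.6, 17.7 and 18.3 CPM in siACO1, 6.85-fold apart, with a log2 difference of 2.78 ± 0.05, adjusted p = 2.91e-26. Against the siControl mean of 27.1 ± 0.195 CPM, the siACLY libraries were all higher and the siACO1 libraries all lower. ROBO4, a guidance receptor best known from endothelium (chr11:124883691-124898500, minus strand), measured 16.2, 16.1 and 15.1 CPM in siACLY and 2.9, 2.89 and 3.21 CPM in siACO1 (log2 difference 2.39 ± 0.11, adjusted p = 1.34e-16). Aldose reductase, AKR1B1, which reduces glucose to sorbitol with NADPH, measured 16, 16.2 and 17.1 CPM in siACLY and 3.26, 3.74 and 4.17 CPM in siACO1 (log2 difference 2.13 ± 0.10, adjusted p = 9.02e-16). These 3 genes shared an order, with siACLY above siControl and siACO1 below it. The lipoxygenase ALOXE3 measured 6.59, 6.05 and 6.13 CPM in siACLY and 1.05, 1.4 and 0.738 CPM in siACO1 and the schlafen family member SLFN5 34.8, 39.1 and 38.3 CPM in siACLY and 9.38, 8.68 and 9.21 CPM in siACO1, again without overlap. Their log2 differences were 2.56 (adjusted p = 5.74e-12) and 2.04 (adjusted p = 1.24e-11). The others of the 12 largest were RAB39B (2.64), SLC37A2 (2.57), RIMS4 (2.38), TFCP2L1 (2.21), PARM1 (2.18) and UNC5B (2.00). For TFCP2L1, a transcription factor, the difference came mainly from the siACO1 side, as its log2 difference from siControl was -1.72 in siACO1 and 0.48 in siACLY.

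Genes lowest in siACLY relative to siACO1, under the same limit of 5 CPM, differed in where siControl lay. For some the larger distance from siControl was that of siACO1. H1-2, a linker histone (chr6:26055787-26056428, minus strand), measured 10.1, 7.25 and 9.87 CPM in siACLY and 38.6, 38.2 and 45.6 CPM in siACO1, against 11.4, 8.96 and 8.79 CPM in siControl. Its siACLY and siControl libraries overlapped, and every siACO1 library was at least 38.2 CPM; the log2 difference between the knockdowns was -2.15 ± 0.13, adjusted p = 1.61e-09. MLLT11 (6.81, 5.93 and 5.24 CPM in siACLY and 23.3, 22.8 and 20.8 CPM in siACO1; siControl 4.63 ± 0.439 CPM) and the carbonic anhydrase-related CA11 (6.27, 5.59 and 6.01 CPM in siACLY and 17.3, 17.8 and 21.5 CPM in siACO1; siControl 5.2 ± 0.712 CPM) also stood furthest from siControl in siACO1, and MLLT11 was above siControl in siACLY as well, by 0.39 (adjusted p = 0.0115). MT1M, a metal-binding metallothionein, measured 11.2, 11.7 and 12.6 CPM in siACLY and 39.9, 42 and 52.3 CPM in siACO1 (log2 difference -1.93 ± 0.09, adjusted p = 1.78e-15); at least 20% of its transcript sequence is shared with other genes, so its reads may belong in part to other metallothioneins. For others the larger distance was that of siACLY. FURIN, the protease that matures many secreted and membrane proproteins (chr15:90868592-90883458, plus strand), measured 30.01, 27.6 and 29.99 CPM in siACLY and 96.2, 90.5 and 98.6 CPM in siACO1 with siControl at 73.7 ± 4.73 CPM, a log2 difference of -1.70 ± 0.06, adjusted p = 8.45e-20 between the knockdowns. ARHGEF40, an exchange factor for small GTPases, measured 2.47, 2.68 and 3.16 CPM in siACLY and 9.5, 9.26 and 9.28 CPM in siACO1. Its level in siACO1 lay at the siControl mean of 8.64 ± 0.712 CPM, and the log2 difference between knockdowns was -1.77 ± 0.12, adjusted p = 1.57e-12.

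TET1, an iron- and 2-oxoglutarate-dependent enzyme that oxidises methylated cytosine, moved away from siControl on both sides. Its libraries held 3.06, 2.83 and 3.01 CPM in siACLY and 10.1, 10.6 and 8.83 CPM in siACO1 and 4.66, 5.86 and 4.79 CPM in siControl, with no overlap among the 3 groups. The log2 difference between the knockdowns was -1.72 ± 0.13, adjusted p = 6.18e-12. ZNF467 (-2.25), MIR503HG (-1.96), SSPOP (-1.62) and the circadian transcription factor DBP (-1.62) completed the 12, and each of them was below siControl in siACLY and above it in siACO1, with both differences called. ZNF467 and SSPOP are neighbours on chromosome 7 (chr7:149764182-149773479, minus strand, and chr7:149776042-149833979, plus strand), as are CA11 and DBP on chromosome 19 (chr19:48637942-48646312, minus strand, and chr19:48630030-48637438, minus strand). Within each pair these coordinates do not overlap, and CA11 and DBP lie on the same strand. Whether reads were assigned by strand is not given in the sources used here, and sharing of reads between neighbours was not tested.

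A sequence feature that the design did not use accompanied part of the higher calls. The heptamers AACTAAC and TCTACGT, chosen because earlier results of these data had pointed to them, were searched on the transcript strand of 3′ UTRs in GENCODE 29. Of the 681 tested genes with AACTAAC, 43.3% were higher and 14.8% lower in siACLY, and of the 209 genes with TCTACGT, 48.8% were higher and 16.3% lower. Over the 11410 tested genes with a 3′ UTR the shares were 26.5% and 24%. Genes with either heptamer made up 7.56% of them. RAB39B, ALOXE3, TFCP2L1, SLFN5 and UNC5B were among the carriers in the largest differences, and their part in those results was not tested. RHOB, ROBO4 and AKR1B1 had neither, nor did the 16 and 18 tested members of the integrated stress response and tRNA synthetase lists described next. At a share of 7.56% few carriers would be found in lists this short, so their absence does not set these lists apart. The siRNA sequences are not given, and a match to them was not tested.

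The clearest separation among the pathway lists was in the integrated stress response, the program in which ATF4 is translated when initiation of protein synthesis is slowed and then switches on genes of amino acid supply. Of the 20 listed genes, 16 passed the filter on low counts and 16 of those 16 were higher in siACLY, against 21.4% of all genes; their median log2 difference was 0.85. All 16 also had at least 10 counts in every library. Leaving out the third siACO1 library gave 16 of 16 and a median of 0.90. The lists were chosen with earlier results of these data known, so this count describes the direct contrast and is not independent support.

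ASNS, asparagine synthetase, measured 17.5, 16.5 and 17.7 CPM in siACLY and 6.76, 6.5 and 5.49 CPM in siACO1, with 12.1, 9.85 and 9.61 CPM in siControl. The 3 groups did not overlap, siACLY being highest and siACO1 lowest, and the log2 difference between the knockdowns was 1.47 ± 0.11, adjusted p = 7.75e-12; its exons overlap another annotated gene, so its reads are uncertain. VLDLR, a lipoprotein receptor and ATF4 target, measured 11, 11.9 and 12 CPM in siACLY and 4.83, 4.91 and 3.88 CPM in siACO1 (log2 difference 1.36 ± 0.13, adjusted p = 6.15e-10). The transcription factor ATF3 measured 11.1, 11.1 and 12.1 CPM in siACLY and 4.67, 4.23 and 5.17 CPM in siACO1 (log2 difference 1.28 ± 0.11, adjusted p = 1.37e-10). TRIB3, a pseudokinase that damps the response, was more abundant and showed the same order at 217, 219.8 and 234 CPM in siACLY and 96.9, 93.3 and 105 CPM in siACO1, 1.18 apart on the log2 scale (adjusted p = 5.59e-14). CHAC1, which degrades glutathione and is a widely used marker of the response, measured 40.9, 39.5 and 40.8 CPM in siACLY and 22.8, 21.6 and 24.1 CPM in siACO1 (log2 difference 0.82 ± 0.06, adjusted p = 2.02e-11). The ATF4 message itself measured 372, 395 and 401 CPM in siACLY and 245, 237 and 270.3 CPM in siACO1, and its log2 difference was 0.63 ± 0.05, adjusted p = 7.47e-12; its sequence is shared in part with other annotated genes and its reads are uncertain. DDIT3 (0.69), CEBPB (0.88), GDF15 (0.95), CTH (0.94), PPP1R15A (0.72) and NUPR1 (1.21) were all called higher in siACLY.

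The separation had a side above siControl and a side below it. In the contrasts with siControl, 14 of the 16 were higher and 0 lower in siACLY, with a median log2 difference of 0.64, and 0 were higher and 10 lower in siACO1, with a median of -0.29. For ASNS the values were 0.71 (adjusted p = 2.4e-06) in siACLY and -0.76 (adjusted p = 4.25e-06) in siACO1. DDIT3 and GDF15 showed the siACLY side alone, at 0.83 and 1.06 in siACLY against 0.14 (adjusted p = 0.268) and 0.11 (adjusted p = 0.66) in siACO1. The remaining 4 listed genes were not tested: FGF21 had at most 8 counts in a library, SESN2 and STC2 at most 1 and PCK2 0.

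Enzymes of serine synthesis and folate one-carbon metabolism, a pathway ATF4 also drives, separated in the same direction with 2 exceptions. Of the 14 tested genes, 10 were higher and 2 lower in siACLY, with a median log2 difference of 0.61. PHGDH, which commits 3-phosphoglycerate to serine, measured 245, 262 and 259.7 CPM in siACLY and 128, 127 and 137 CPM in siACO1, and PSAT1, the next enzyme, measured 537, 559.98 and 568 CPM in siACLY and 292, 296 and 333 CPM in siACO1. Both were close to siControl in siACLY (271 ± 1.07 and 595 ± 22.8 CPM in siControl), so the log2 differences of 0.97 ± 0.06, adjusted p = 1.78e-10, and 0.86 ± 0.05, adjusted p = 1.34e-12, lay on the siACO1 side. ALDH1L2, which oxidises 10-formyltetrahydrofolate in mitochondria, instead moved both ways: 16.6, 18.3 and 19.2 CPM in siACLY and 5.47, 4.78 and 4.72 CPM in siACO1, with 8.79, 10.1 and 10.8 CPM in siControl and a log2 difference of 1.85 ± 0.12, adjusted p = 2.8e-13 between the knockdowns. Its cytosolic relative ALDH1L1 had the largest log2 difference of the list (2.85), at levels under 1 CPM in every siACLY and siACO1 library. The mitochondrial enzymes MTHFD2 (544, 576 and 536 CPM in siACLY and 326, 320.4 and 344 CPM in siACO1) and SHMT2 (295, 300.5 and 305 CPM in siACLY and 196, 195 and 221 CPM in siACO1) were 0.74 and 0.56 apart on the log2 scale. MTHFD2L (-0.49) and thymidylate synthase, TYMS (-0.29), were lower in siACLY. Against siControl, 5 genes of the list were higher and 0 lower in siACLY, and 1 was higher and 11 lower in siACO1.

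Amino acid transporters gave 8 higher and 2 lower in siACLY among 14 tested genes of 17 listed, with a median of 0.37. SLC1A4, a carrier of alanine, serine and cysteine, measured 69.3, 70.1 and 74.4 CPM in siACLY and 38.2, 37.7 and 41.5 CPM in siACO1, and here siACO1 lay near the siControl mean of 43.9 ± 1.99 CPM (log2 difference between knockdowns 0.86 ± 0.07, adjusted p = 1.33e-10). The cationic amino acid carrier SLC7A1 measured 266, 273 and 291 CPM in siACLY and 183, 168 and 155 CPM in siACO1 (log2 difference 0.72 ± 0.05, adjusted p = 8.42e-13), with siControl between the groups. SLC7A5, the large neutral amino acid carrier, was below the siControl mean of 1351 ± 65.8 CPM in both knockdowns, at 1106, 1102 and 1112 CPM in siACLY and 830.2, 815 and 825 CPM in siACO1. Its log2 difference of 0.43 (adjusted p = 1.57e-09) thus separated a smaller from a larger fall. SLC38A2 (-0.11) and SLC7A6 (-0.18) were lower in siACLY; of these 2 calls, 1 was left without the first or second siACLY or the second siACO1 library and 0 without the third siACLY library.

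Cytosolic aminoacyl-tRNA synthetases, which charge tRNAs with amino acids, gave 13 higher and 0 lower in siACLY among 18 tested genes of 20 listed, with a median of 0.37. The 3 largest differences were those of WARS1 (517, 569 and 574 CPM in siACLY and 353, 352 and 368 CPM in siACO1), GARS1 (775, 832 and 822 CPM in siACLY and 512, 503 and 558 CPM in siACO1) and YARS1 (469, 487 and 477 CPM in siACLY and 316, 310.2 and 327 CPM in siACO1). In each the groups were apart, with log2 differences of 0.63 ± 0.06, adjusted p = 5.14e-09; 0.63 ± 0.05, adjusted p = 4.43e-12; and 0.59 ± 0.04, adjusted p = 4.51e-13. Most of the separation lay in siACO1: against siControl, 15 of the 18 were lower and 1 higher in siACO1, and 5 were higher and 3 lower in siACLY. FARSA, FARSB, KARS1, QARS1 and RARS1 were not called, with log2 differences between -0.02 and 0.10. VARS1 is listed at 0 and IARS1 had at most 2 counts, which cannot be read as absence of these universally used enzymes, because the counting rules are not given in the sources used here.

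**Figure D3:**
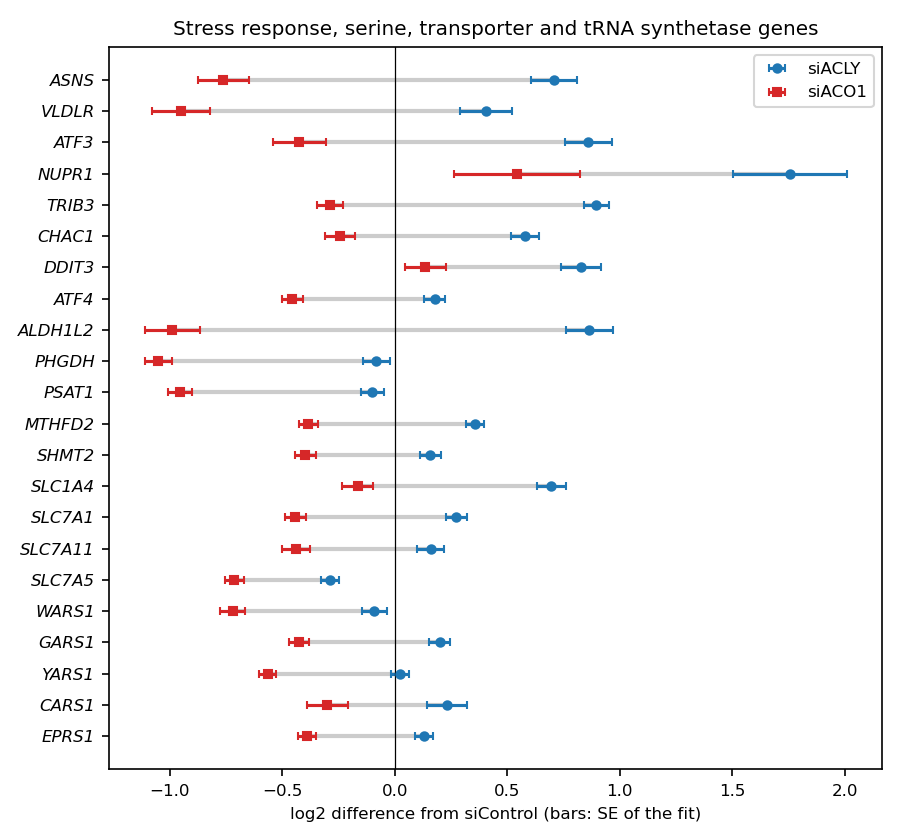
Log2 difference from siControl (x axis; bars are the standard error of the fit) of 22 genes of the stress response, serine, transporter and tRNA synthetase lists in siACLY (blue circles) and siACO1 (red squares). Only genes higher in siACLY than in siACO1 were picked for the plot, so the siACLY value lies to the right for each by choice. List members that were lower in siACLY (MTHFD2L, TYMS, SLC38A2 and SLC7A6) or not called are not plotted. Most of the siACO1 values plotted lie below 0.

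Promoters of these genes were searched for TGATGNAA, a form of the element that ATF4 binds together with C/EBP proteins, on both strands of RefSeq windows from 250 bases before to 50 after the gene start (GRCh38.p14). The element occurred in 3 of the 15 stress response members with a promoter in the table (ATF3, ASNS and CHAC1) and in 5 of 15 synthetases (TARS1, CARS1, MARS1, AARS1 and NARS1). It also occurred in 3 of 12 transporters (SLC3A2, SLC38A1 and SLC7A1) and 1 of 9 serine and one-carbon genes (MTHFD1L), against 1.68% of 10678 promoters of tested genes and 3.67% of all 27305 promoters. A match of letters is a description and not a site of binding. Promoters of 4 of these genes are shown because their levels separated the knockdowns; the element, or its reverse complement where it lies on the opposite strand, is in capitals, and each is read 5′ to 3′ on the gene's strand.
ASNS (chr7:97872359-97872658, minus strand): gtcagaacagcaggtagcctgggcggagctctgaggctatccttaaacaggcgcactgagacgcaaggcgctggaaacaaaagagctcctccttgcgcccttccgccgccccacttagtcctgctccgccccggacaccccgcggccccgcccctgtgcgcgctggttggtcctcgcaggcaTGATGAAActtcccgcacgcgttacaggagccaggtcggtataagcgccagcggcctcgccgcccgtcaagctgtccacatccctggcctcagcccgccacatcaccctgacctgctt
ATF3 (chr1:212565157-212565456, plus strand): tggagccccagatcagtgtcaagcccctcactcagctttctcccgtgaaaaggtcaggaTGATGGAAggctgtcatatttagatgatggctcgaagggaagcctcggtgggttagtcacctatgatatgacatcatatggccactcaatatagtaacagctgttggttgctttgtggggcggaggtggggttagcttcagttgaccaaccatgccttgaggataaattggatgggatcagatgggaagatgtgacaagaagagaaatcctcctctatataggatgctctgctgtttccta
CHAC1 (chr15:40953221-40953520, plus strand): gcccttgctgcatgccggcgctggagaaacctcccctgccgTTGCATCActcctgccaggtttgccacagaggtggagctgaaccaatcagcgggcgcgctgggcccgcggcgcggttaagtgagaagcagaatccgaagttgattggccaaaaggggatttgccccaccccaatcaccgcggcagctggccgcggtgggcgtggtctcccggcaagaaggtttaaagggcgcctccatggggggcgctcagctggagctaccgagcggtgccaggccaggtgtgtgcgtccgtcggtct
SLC7A1 (chr13:29595639-29595938, minus strand): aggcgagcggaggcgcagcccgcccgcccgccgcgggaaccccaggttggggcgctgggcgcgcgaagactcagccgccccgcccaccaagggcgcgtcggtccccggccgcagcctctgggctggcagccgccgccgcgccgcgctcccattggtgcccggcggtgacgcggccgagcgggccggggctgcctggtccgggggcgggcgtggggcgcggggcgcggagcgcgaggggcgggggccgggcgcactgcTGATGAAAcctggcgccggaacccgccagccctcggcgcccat

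The 2 branches of citrate use themselves showed small transcript differences beyond the targets. In the list of acetyl-CoA supply, 4 genes were higher and 2 lower in siACLY among 14 tested genes of 15 listed, with a median of 0.02. The share called was 42.9%, near the 42.1% of all genes. With 1 library left out the median ran from -0.049 (without the third siACO1 library) to 0.064 (without the first), and 1 gene was lower in 4 of those 6 fits. ACSS2, which makes acetyl-CoA from acetate and so can stand in for citrate lyase, measured 32.2, 30.6 and 31.8 CPM in siACLY and 21.4, 22.8 and 24.1 CPM in siACO1. Its siACO1 libraries were near the siControl mean of 22.3 ± 1.23 CPM and the siACLY libraries above it, for a log2 difference of 0.47 ± 0.07, adjusted p = 9.65e-07. PDHX, the component that tethers the pyruvate dehydrogenase complex, measured 119, 118 and 114 CPM in siACLY and 168, 171 and 173 CPM in siACO1 (log2 difference -0.55 ± 0.04, adjusted p = 4.5e-12). It stood above siControl in siACO1 by 0.43 (adjusted p = 7.97e-10) and below it in siACLY by -0.12 (adjusted p = 0.0236). The inhibitory kinase PDK3 was higher in siACLY (0.37 ± 0.07, adjusted p = 0.000182).

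Among 24 tested genes of 25 listed of citrate, isocitrate and the TCA cycle, 6 were higher and 2 lower in siACLY, so 33.3% were called beside 42.1% of all genes. IDH1, the enzyme downstream of cytosolic aconitase, measured 133, 142 and 139 CPM in siACLY and 135, 135 and 145 CPM in siACO1, and the groups overlapped (log2 difference -0.01 ± 0.05, adjusted p = 0.935). IDH3A, a subunit of mitochondrial isocitrate dehydrogenase, measured 42.9, 41.4 and 46 CPM in siACLY and 30.02, 28 and 27.2 CPM in siACO1: siACLY lay at the siControl mean of 44.3 ± 1.85 CPM and siACO1 below it, 0.61 apart on the log2 scale (adjusted p = 9.98e-10; reads uncertain). SUCLA2, a subunit of succinyl-CoA synthetase, showed the reverse order at 37.4, 38.3 and 34.7 CPM in siACLY and 54, 53.1 and 54.1 CPM in siACO1 (log2 difference -0.54 ± 0.06, adjusted p = 3.2e-09). OGDH, which consumes 2-oxoglutarate, was higher in siACLY (0.34, adjusted p = 1.59e-08), and the oxoglutarate carrier SLC25A11 was lower (-0.36, adjusted p = 1.79e-06).

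Fatty acid synthesis, which draws on the acetyl-CoA made by citrate lyase, gave 2 higher and 6 lower in siACLY among 20 tested genes of 23 listed, with a median of -0.02. Called members made up 40% of those tested, near the 42.1% of all genes. The median was -0.055, with 1 gene higher, without the first siACLY library, -0.059 without the third, and -0.090 without the third siACO1 library. Fatty acid synthase, FASN, measured 572, 516 and 575 CPM in siACLY and 589, 572 and 487 CPM in siACO1. The groups overlapped (log2 difference 0.01 ± 0.07, adjusted p = 0.904) although both were below siControl, by -0.47 (adjusted p = 5.37e-05) in siACLY and -0.48 (adjusted p = 3.89e-05) in siACO1. SCD, which desaturates stearoyl-CoA, measured 462, 493 and 487 CPM in siACLY and 571, 577 and 562 CPM in siACO1 and was lower in siACLY by a log2 difference of -0.24 ± 0.06, adjusted p = 0.00296; both knockdowns were again below the siControl mean of 749 ± 60.2 CPM, and SCD carries AACTAAC. The elongation enzymes HACD3 (-0.35) and TECR (-0.25) were lower in siACLY too, and ELOVL7 was higher (2.08) at a mean of 1.997 ± 0.68 CPM in siACLY.

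Cholesterol synthesis and uptake gave 8 higher and 2 lower in siACLY among 22 tested genes of 25 listed, with a median of 0.09. The shares were 36.4% and 9.09%, beside 21.4% and 20.7% of all genes. In either direction 45.5% were called, near the 42.1% of all genes. The higher genes numbered 4 without the second siACLY library and 5, beside 1 lower, without the first siACO1 library. HMGCS1, which condenses acetyl-CoA into HMG-CoA, measured 38.8, 41.1 and 40.2 CPM in siACLY and 36.4, 36.6 and 33 CPM in siACO1. Both knockdowns exceeded the siControl mean of 26.4 ± 0.794 CPM, and the log2 difference between them was 0.18 ± 0.06, adjusted p = 0.0127, which did not pass without the second siACLY library (0.16, adjusted p = 0.0595) or the third siACO1 library (0.13, adjusted p = 0.0803). IDI1, the isopentenyl diphosphate isomerase of the pathway, was higher in siACLY (0.26) and carries AACTAAC. SREBF2, the transcription factor that drives the pathway, was instead lower in siACLY at 86.4, 81.8 and 89.8 CPM in siACLY and 132, 125 and 117 CPM in siACO1 (log2 difference -0.54 ± 0.05, adjusted p = 1.69e-10), with siACO1 at the siControl level. The sterol regulatory element, searched in its consensus form on both strands, was found in 1 of the 16 promoters of the list (SREBF2), against 0.0843% of promoters of tested genes and 0.154% of all promoters.

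Transcripts with iron-responsive elements were examined because cytosolic aconitase without its cluster binds them. The element was searched as an unpaired C, a 5-base stem and a loop of CAGTGN or CAGAGN in GENCODE 29 transcripts. It was found in the 5′ UTRs of FTH1, FTL and SLC40A1, at 5 places in the 3′ UTR of TFRC, and in the 3′ UTRs of CDC14A and CDC42BPA, and no match was found for EPAS1, PFN2 or SLC11A2. The elements of both ferritins and of the transferrin receptor are shown because their position sets the known response; capitals mark the unpaired C and the loop.
FTH1 5′ UTR (chr11:61967575-61967601, minus strand): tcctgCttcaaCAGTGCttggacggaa
FTL 5′ UTR (chr19:48965336-48965362, plus strand): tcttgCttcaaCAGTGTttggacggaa
TFRC 3′ UTR (chr3:196050464-196050490, minus strand): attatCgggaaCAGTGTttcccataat
TFRC 3′ UTR (chr3:196050511-196050537, minus strand): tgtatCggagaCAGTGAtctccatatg
TFRC 3′ UTR (chr3:196050576-196050602, minus strand): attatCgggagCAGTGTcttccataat
TFRC 3′ UTR (chr3:196050980-196051006, minus strand): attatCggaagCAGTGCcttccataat
TFRC 3′ UTR (chr3:196051030-196051056, minus strand): tttatCagtgaCAGAGTtcactataaa

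TFRC, the transferrin receptor whose message is stabilised through those 3′ elements, measured 657, 663 and 646 CPM in siACLY and 544, 566 and 528 CPM in siACO1. The groups did not overlap (log2 difference 0.26 ± 0.04, adjusted p = 1.56e-06), and both were below siControl, by -0.22 (adjusted p = 3.85e-05) in siACLY and -0.48 (adjusted p = 3.67e-11) in siACO1. FTH1, the ferritin heavy chain, was lower in siACLY at 725, 725 and 711 CPM in siACLY and 815, 839 and 847 CPM in siACO1 (log2 difference -0.21 ± 0.04, adjusted p = 2.18e-05), whereas FTL, the light chain, was higher at 2287, 2341 and 2274 CPM in siACLY and 1929, 1869 and 2186 CPM in siACO1 (log2 difference 0.21 ± 0.05, adjusted p = 0.000492). The 2 ferritin messages carry the element at the same place and separated the knockdowns in opposite directions; both share sequence with other annotated genes and their reads are uncertain. Their translation was not measured. PFN2, a profilin, measured 183, 182 and 172 CPM in siACLY and 279.8, 281 and 302 CPM in siACO1, with siACLY near the siControl mean of 172 ± 1.31 CPM and a log2 difference of -0.68 ± 0.04, adjusted p = 3.32e-13. EPAS1, a hypoxia-inducible factor, was higher in siACLY (0.89) at a mean of 2.04 ± 0.312 CPM. In all, 4 members were higher and 3 lower among 9 tested genes of 10 listed, and the iron exporter SLC40A1 had at most 2 counts and was not tested.

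Among other genes of iron handling, 3 were higher and 6 lower in siACLY among 16 tested genes of 23 listed. HMOX1, heme oxygenase, which releases iron from heme, measured 54.2, 53 and 60.7 CPM in siACLY and 15.7, 13.3 and 17.3 CPM in siACO1 with siControl at 19.9 ± 0.83 CPM. Every siACLY library exceeded every siACO1 and siControl library, and the log2 difference between the knockdowns was 1.86 ± 0.08, adjusted p = 3.34e-17. STEAP3, an endosomal ferrireductase, was below siControl in both knockdowns and further below in siACO1 (37.3, 38.3 and 39.2 CPM in siACLY and 26.3, 20.9 and 24.2 CPM in siACO1; log2 difference 0.69 ± 0.06, adjusted p = 5.08e-10). IREB2, which encodes the other iron regulatory protein, measured 66.7, 64.4 and 66.5 CPM in siACLY and 79.2, 77.6 and 75.6 CPM in siACO1 (log2 difference -0.23 ± 0.04, adjusted p = 9.17e-05). HFE, which binds the transferrin receptor, was lower in siACLY as well (-0.65, adjusted p = 5.08e-09), as was the ferroxidase CP (-0.82) at about 1 to 2 CPM with uncertain reads.

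Iron-sulfur cluster assembly, on which aconitase depends, gave 6 higher and 8 lower in siACLY among 25 tested genes of 26 listed, with a median of 0.01; without the third siACO1 library the counts were 7 and 4 and the median -0.04. The lower genes numbered 4 without the second siACLY library and 5 without the third, and over the 6 fits with 1 library left out the median ran from -0.060 to 0.0070. CIAO2B, a subunit of the complex that hands clusters to cytosolic proteins, stood out at 94.7, 94.1 and 103 CPM in siACLY and 40.3, 41.4 and 47.7 CPM in siACO1. Its siACLY libraries overlapped those of siControl (98.1, 90.3 and 99.6 CPM), so the log2 difference of 1.17 ± 0.06, adjusted p = 1.08e-15 lay on the siACO1 side; CIAO2B carries the heptamer AACTAAC, whose part was not tested. IBA57, which acts late in mitochondrial assembly of clusters, including that of aconitase, measured 17.7, 17.9 and 19.9 CPM in siACLY and 10.2, 10.3 and 10.1 CPM in siACO1 (log2 difference 0.85 ± 0.08, adjusted p = 6.56e-10), with siControl between the groups. NUBP1, a cytosolic scaffold, was higher in siACLY by 0.45 with uncertain reads.

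Genes that promote ferroptosis, the iron-dependent death by lipid peroxidation, gave 7 higher and 2 lower in siACLY among 13 tested genes of 18 listed, with a median of 0.25. The list counts HMOX1, ALOXE3, CHAC1 and TFRC given above. ACSL4, which loads polyunsaturated fatty acids into phospholipids and so supplies the substrate of peroxidation, measured 98.8, 103 and 100.3 CPM in siACLY and 66.8, 69.1 and 62.8 CPM in siACO1. It was above the siControl mean of 55.9 ± 0.604 CPM in both knockdowns and higher in siACLY by 0.61 ± 0.05, adjusted p = 1.58e-11 on the log2 scale. SAT1, a polyamine-acetylating enzyme, followed the same order (88.8, 88.9 and 84.8 CPM in siACLY and 63.7, 61.3 and 64.4 CPM in siACO1; log2 difference 0.47, adjusted p = 1.1e-08). LPCAT3 (-0.37) and CYB5R1 (-0.48) were lower in siACLY.

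The suppressors of ferroptosis were divided, with 7 higher and 3 lower in siACLY among 17 tested genes. GPX4, the peroxidase that reduces lipid hydroperoxides, measured 216, 214 and 228 CPM in siACLY and 279, 275 and 334 CPM in siACO1, a log2 difference of -0.43 ± 0.05, adjusted p = 3.63e-07, with siACLY below the siControl mean of 281 ± 5.04 CPM. SLC7A11, the cystine carrier that feeds glutathione synthesis, went the other way at 53.3, 55.3 and 60.7 CPM in siACLY and 37.1, 39.3 and 35 CPM in siACO1 (log2 difference 0.60 ± 0.06, adjusted p = 3.86e-09), siACO1 being below the siControl mean of 50.4 ± 1.53 CPM; it carries AACTAAC. AIFM2, which encodes the ubiquinone reductase FSP1, measured 61.3, 61.4 and 64.5 CPM in siACLY and 58.5, 57.5 and 61.2 CPM in siACO1 and was not called (0.08 ± 0.05, adjusted p = 0.206). These 3 arms of protection therefore did not share an order. MBOAT1, a phospholipid-remodelling acyltransferase, was higher in siACLY (0.63, adjusted p = 0.000499).

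Targets of NRF2, the transcription factor of the oxidant response, gave 10 higher and 4 lower in siACLY among 23 tested genes of 24 listed, with a median of 0.07 (0.038 and 0.039 without the first and second siACO1 libraries). NFE2L2, which encodes NRF2, measured 70.3, 70.5 and 72 CPM in siACLY and 53.8, 51.5 and 49.3 CPM in siACO1, and both knockdowns were below the siControl mean of 80.5 ± 1.39 CPM (log2 difference between them 0.46 ± 0.05, adjusted p = 1.16e-08; heptamer carrier, reads uncertain). Thioredoxin reductase, TXNRD1, measured 554, 563 and 569 CPM in siACLY and 367, 368 and 369.5 CPM in siACO1 and OSGIN1 26.4, 25.6 and 27.9 CPM in siACLY and 13.2, 15 and 17 CPM in siACO1. In both, siACLY was near siControl and siACO1 below it, with log2 differences of 0.61 (adjusted p = 1.56e-13) and 0.81 (adjusted p = 1.94e-09). AKR1C2 was lower in siACLY (-0.73 ± 0.22, adjusted p = 0.00765) at under 3 CPM with uncertain reads; without the second siACO1 library it did not pass (-0.59, adjusted p = 0.0571).

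**Figure D4:**
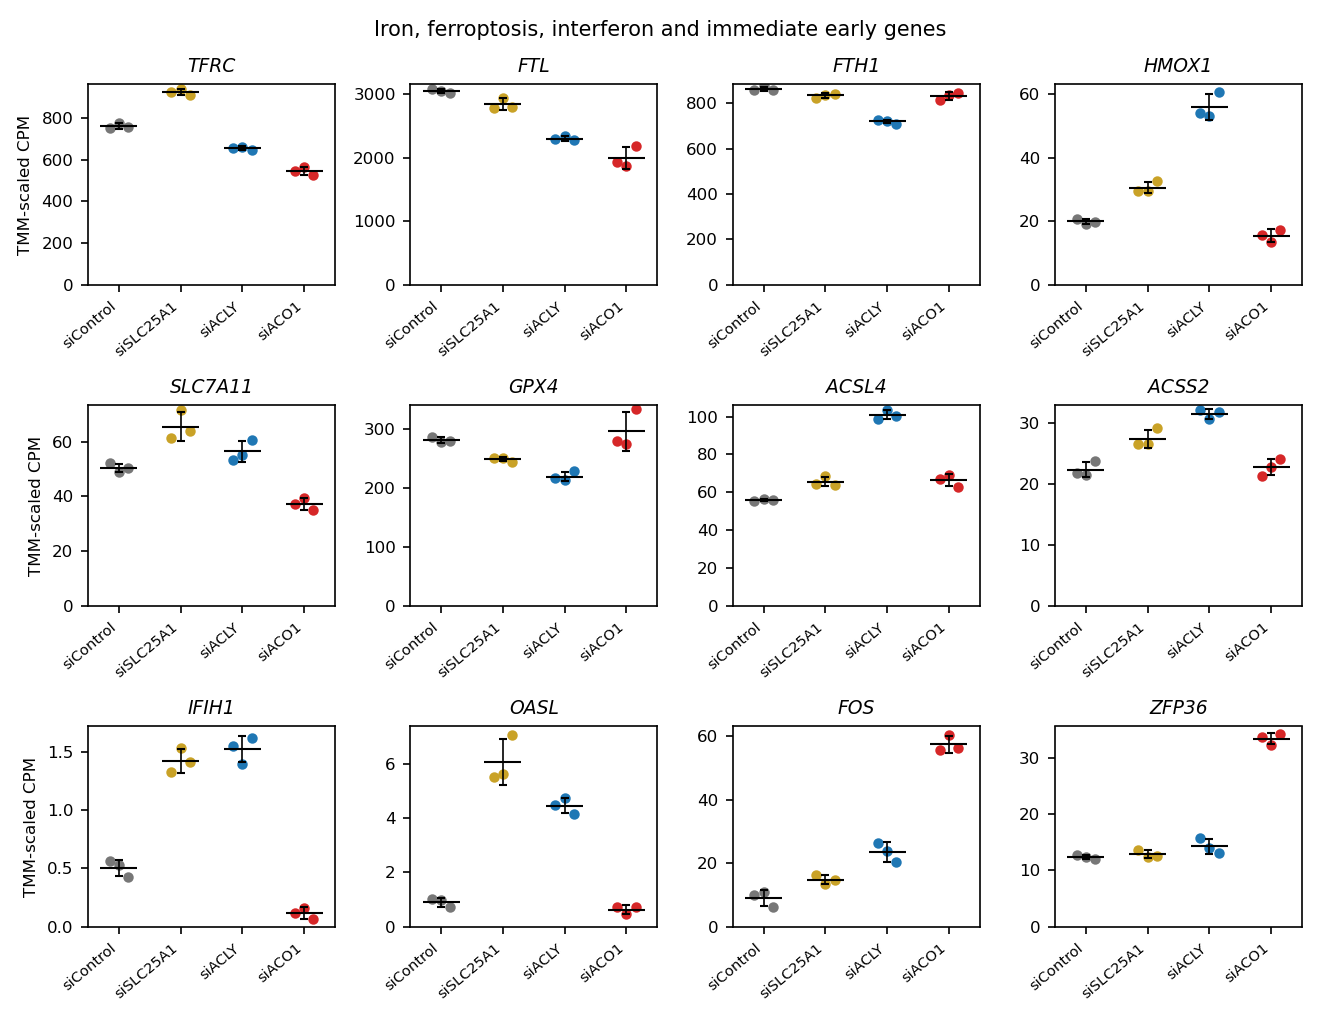
Levels in TMM-scaled CPM (y axes, linear, from 0) of 12 genes of iron handling, ferroptosis, acetate use, interferon and immediate early responses in the 4 groups; points are libraries, bars the mean ± SD of 3. HMOX1, ACSL4 and ACSS2 were highest in siACLY, FOS and ZFP36 were highest in siACO1, and TFRC and FTL were below siControl in both knockdowns.

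Interferon response genes separated in both directions, with the largest differences at low levels. Of 26 tested genes of 36 listed, 12 were higher and 7 lower in siACLY, with a median of 0.14; without the third siACLY library 12 were higher and 4 lower. IFIH1, a sensor of double-stranded RNA, measured 1.55, 1.4 and 1.62 CPM in siACLY and 0.121, 0.163 and 0.0642 CPM in siACO1, a log2 difference of 3.68 ± 0.37, adjusted p = 3.21e-09. OASL, of the oligoadenylate synthetase family, measured 4.47, 4.73 and 4.16 CPM in siACLY and 0.724, 0.455 and 0.706 CPM in siACO1 (log2 difference 2.83 ± 0.21, adjusted p = 6.06e-12), and OAS2 measured 1.19, 0.931 and 1.39 CPM in siACLY and 0.201, 0.13 and 0.257 CPM in siACO1 (log2 difference 2.55 ± 0.45, adjusted p = 3.23e-05). Some of the other members showed smaller differences of the same sign, among them IFIT3 and DDX60 (1.76). IFIT3 measured 12.6, 12 and 11.6 CPM in siACLY and 4.35, 4.13 and 4.78 CPM in siACO1 (log2 difference 1.45, adjusted p = 1.01e-11). Others had the opposite sign, and log2 differences in the list ran down to -1.25. The signal transducer STAT2 was lower in siACLY (-0.32), at a mean of 40.02 ± 1.44 CPM. Among the 21 members with at least 10 counts in every library, 9 were higher and 6 lower and the median was 0.014. OASL and OAS2 in siACO1 lay near siControl, whereas IFIH1 in siACO1 was below it by -2.10 (adjusted p = 0.0003003).

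Immediate early genes and ERK feedback genes, which respond within minutes to growth factor signals, gave 9 higher and 9 lower in siACLY among 28 tested genes of 33 listed. FOS measured 26.4, 24 and 20.4 CPM in siACLY and 55.8, 60.4 and 56.3 CPM in siACO1, with 9.99, 10.8 and 6.15 CPM in siControl, so both knockdowns were above siControl and siACO1 further above. The log2 difference between them was -1.27 ± 0.14, adjusted p = 2.27e-05. FOSB (12.6, 10.2 and 9.91 CPM in siACLY and 24, 27.7 and 18.8 CPM in siACO1; log2 difference -1.09, adjusted p = 6.66e-06) and the orphan receptor NR4A1 (1.73, 1.05 and 1.35 CPM in siACLY and 4.51, 4.23 and 3.34 CPM in siACO1; log2 difference -1.51 ± 0.22, adjusted p = 1.94e-06) had the same order. ZFP36, which speeds decay of AU-rich messages, measured 15.8, 14 and 13.1 CPM in siACLY and 33.8, 32.3 and 34.3 CPM in siACO1 with siControl at 12.4 ± 0.385 CPM, a log2 difference of -1.22 ± 0.07, adjusted p = 9e-14. The phosphatase DUSP5 (0.87), KLF4 (0.75) and MAFF (0.75) were higher in siACLY, so the list did not move as 1 group.

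NF-kappaB subunits and targets were also split, 7 higher and 5 lower in siACLY among 16 tested genes of 20 listed. NFKBIA, the inhibitor that NF-kappaB itself induces, measured 16.6, 15.7 and 17.4 CPM in siACLY and 30.3, 28.5 and 37.7 CPM in siACO1. Its siACO1 level overlapped that of siControl (33.9, 32.3 and 36.3 CPM) and the log2 difference between the knockdowns was -0.96 ± 0.08, adjusted p = 2.39e-10. TNFAIP3, another inhibitor, was higher in siACLY at 1.1, 1.71 and 1.77 CPM in siACLY and 0.765, 0.65 and 0.417 CPM in siACO1 (log2 difference 1.30 ± 0.29, adjusted p = 0.000638). The chemokines moved apart, CXCL8 being higher in siACLY at 196, 198 and 205 CPM in siACLY and 114, 111 and 115 CPM in siACO1 (0.82, adjusted p = 1.78e-15) and CXCL3 lower at 1.66, 1.98 and 2.12 CPM in siACLY and 3.7, 3.41 and 4.14 CPM in siACO1 (log2 difference -0.99 ± 0.20, adjusted p = 0.000138).

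Of the genes of mitosis, 12 were lower and 1 higher in siACLY among 25 tested genes (48% and 4%, beside 20.7% and 21.4% of all genes), with a median of -0.12. In bulk RNA, fewer dividing cells and less RNA per cell cannot be told apart. CCNA2, cyclin A, measured 84.7, 80.2 and 75.8 CPM in siACLY and 118, 115 and 113 CPM in siACO1 (log2 difference -0.52 ± 0.05, adjusted p = 1.97e-09). The kinesin KIF11 measured 110.4, 103 and 94.6 CPM in siACLY and 153, 157 and 139.7 CPM in siACO1 (log2 difference -0.54 ± 0.06, adjusted p = 2.06e-08), and separase, ESPL1, 35.2, 31.1 and 33.4 CPM in siACLY and 50.5, 53.2 and 43 CPM in siACO1 (log2 difference -0.55 ± 0.07, adjusted p = 2.46e-07). For these 3 genes the siControl means of 102 ± 2.91, 132 ± 1.44 and 42.1 ± 2.35 CPM lay between the 2 knockdowns. CCNB1 (-0.05) and MKI67 (-0.12) were not called, and without the third siACO1 library 14 were lower and 1 higher.

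DNA replication genes gave 6 higher and 9 lower in siACLY among 33 tested genes of 34 listed, with a median of -0.10. Called members made up 45.5% of those tested, near the 42.1% of all genes. The lower genes numbered 14 without the first siACLY library, and the median was -0.052 without the third. PCNA, the sliding clamp of the replication fork, measured 112, 101 and 93.9 CPM in siACLY and 169, 170.5 and 175 CPM in siACO1, with 192 ± 8.1 CPM in siControl and a log2 difference of -0.74 ± 0.07, adjusted p = 2.62e-07. GINS3, of the replicative helicase, went the other way at 22.6, 22.4 and 19.6 CPM in siACLY and 14, 13.1 and 15.1 CPM in siACO1 (log2 difference 0.62 ± 0.07, adjusted p = 8.35e-08), with siACLY at the siControl level. CCNE2 was lower in siACLY (-0.60, reads uncertain) and CCNE1 higher (0.41).

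Enzymes that write, erase or read histone acetylation, a mark built from the acetyl-CoA that citrate lyase supplies, gave 10 higher and 9 lower in siACLY among 27 tested genes of 30 listed. The deacetylase HDAC9 measured 91.6, 96.7 and 92 CPM in siACLY and 50.7, 53 and 49 CPM in siACO1 (log2 difference 0.88 ± 0.05, adjusted p = 9.16e-15) and the NAD-dependent deacetylase SIRT1 68.9, 68.4 and 68.4 CPM in siACLY and 42.4, 39.3 and 42.9 CPM in siACO1 (log2 difference 0.72 ± 0.05, adjusted p = 7.72e-13). In both, siACO1 was below the siControl means of 82.1 ± 1.08 and 61.2 ± 1.46 CPM; SIRT1 carries AACTAAC. HDAC1 was lower in siACLY at 316, 312 and 304 CPM in siACLY and 413, 419 and 421 CPM in siACO1 (log2 difference -0.43, adjusted p = 1.59e-10). HDAC10 was lower too (-1.03) at under 4 CPM with uncertain reads, and the acetyltransferase KAT5 was higher (0.70). CREBBP (-0.04) and EP300 (0.08) were not called.

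Glycolysis and glucose uptake gave 9 higher and 5 lower in siACLY among 21 tested genes of 24 listed. HK2, a hexokinase, measured 169, 171 and 183 CPM in siACLY and 115, 118 and 106 CPM in siACO1, siACLY being at the siControl mean of 169 ± 7.39 CPM (log2 difference 0.62 ± 0.05, adjusted p = 5.59e-12). SLC16A3, the lactate exporter, was lower in siACLY at 136, 124 and 126 CPM in siACLY and 214, 207 and 203 CPM in siACO1 (log2 difference -0.69 ± 0.05, adjusted p = 2.61e-10), and there siACO1 was at the siControl level. ALDOC, an aldolase, was above the siControl mean of 2.72 ± 0.133 CPM in both (7.78, 7.53 and 7.25 CPM in siACLY and 4.63, 4.16 and 4.98 CPM in siACO1; log2 difference 0.71 ± 0.12, adjusted p = 2.25e-05). TXNIP, which restrains glucose uptake and is induced by glucose metabolites, was likewise raised in both and more in siACLY, at 35, 35.3 and 36.9 CPM in siACLY and 23.9, 24.4 and 27.7 CPM in siACO1 against 14.4, 12.4 and 11.5 CPM in siControl (log2 difference between knockdowns 0.49 ± 0.07, adjusted p = 1.62e-06). LDHA had at most 4 counts and LDHB is listed at 0, which cannot be read as absence of lactate dehydrogenase.

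Hypoxia response genes gave 8 higher and 4 lower in siACLY among 16 tested genes of 19 listed, with a median of 0.19. BNIP3L, a receptor for removal of mitochondria, measured 159, 169.7 and 156 CPM in siACLY and 82.2, 92.3 and 89.95 CPM in siACO1 (log2 difference 0.87 ± 0.05, adjusted p = 3.19e-15; AACTAAC carrier), with siControl between the knockdowns. VEGFA was higher in siACLY (0.33), and NDRG2 (-0.70) and HILPDA (-0.41) were lower. Branches of the response thus did not share a direction.

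Chaperones of the endoplasmic reticulum gave 3 higher and 7 lower in siACLY among 21 tested genes (14.3% and 33.3%, beside 21.4% and 20.7% of all genes). The share called in either direction was 47.6%, near the 42.1% of all genes, whereas in the stress response list it was 100%. The sensor ERN1 measured 29.4, 32.9 and 34.9 CPM in siACLY and 20.3, 21.5 and 21 CPM in siACO1 (log2 difference 0.62 ± 0.07, adjusted p = 1.75e-08) and its substrate XBP1 169, 173 and 182 CPM in siACLY and 120.5, 124 and 143 CPM in siACO1 (log2 difference 0.43 ± 0.06, adjusted p = 1.28e-06). HERPUD1, of the degradation machinery, was also higher in siACLY (0.45). HSPA5, the main chaperone of the compartment, was not called (-0.02), and HSP90B1 (-0.22), CALR (-0.26), PDIA6 (-0.22) and DNAJB9 (-0.33) were lower in siACLY. The difference between the lists was not tested.

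Transcripts encoded by the mitochondrial genome had log2 differences below 0 for each of the 13 genes, of which 5 were called lower in siACLY. These calls made up 38.5% of the 13 genes. Of all genes, 20.7% were called lower and 42.1% in either direction. MT-CYB, a subunit of respiratory complex III, measured 2404, 2460 and 2459 CPM in siACLY and 2715, 2851 and 3210 CPM in siACO1 (log2 difference -0.26 ± 0.05, adjusted p = 0.000168), followed by MT-ND2 (-0.22) and MT-ATP6 (-0.21), both with uncertain reads. The highest value of each called gene came from the third siACO1 library, and without that library 3 of the 13 were called (8 without the first siACO1 library) and the median moved from -0.16 to -0.04.

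**Figure D5:**
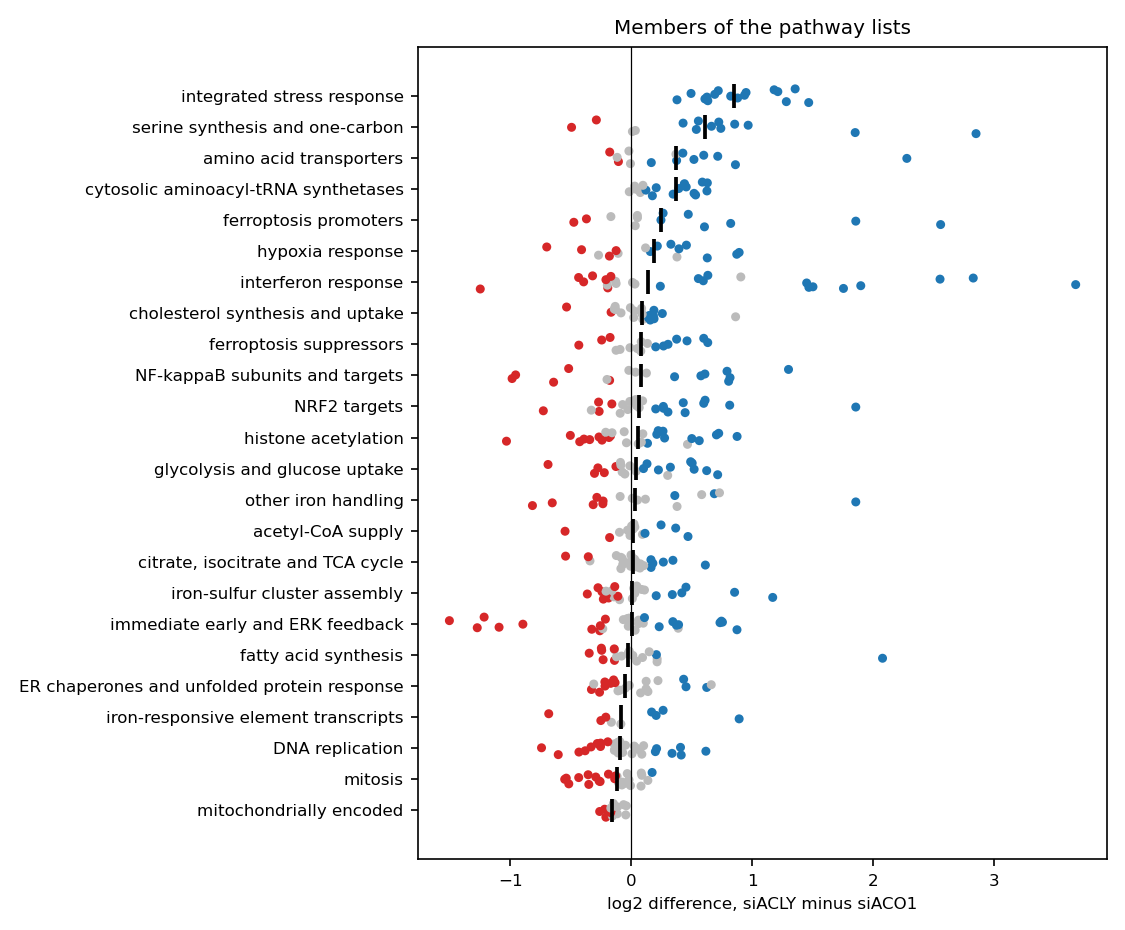
Log2 difference siACLY minus siACO1 (x axis) of each tested member of the 24 pathway lists; blue and red points were called higher and lower in siACLY, grey points were not called, and black bars are list medians. The integrated stress response is the list whose tested members were all called in 1 direction, and medians of the metabolic lists of citrate use lie near 0.

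Keratins, checked first as markers of the line, also separated the knockdowns. The summed level of the 10 epithelial markers, most of it KRT8 and KRT18, was 3837 to 3936 CPM in siACLY and 2081 to 2197 CPM in siACO1. Of the 5 markers tested, 3 keratins were higher in siACLY. The other 2, MUC1 and LAMB3, were not called and had log2 differences below 0, the lower at -0.34. KRT8 measured 2410, 2436 and 2396 CPM in siACLY and 1263, 1264 and 1313 CPM in siACO1 (log2 difference 0.92 ± 0.04, adjusted p = 1.42e-16), its partner KRT18 1316, 1345 and 1284 CPM in siACLY and 759.8, 750.2 and 811 CPM in siACO1 (log2 difference 0.77 ± 0.04, adjusted p = 5.22e-15), and KRT19 139, 141 and 143 CPM in siACLY and 47.2, 52.4 and 56.5 CPM in siACO1 (log2 difference 1.44 ± 0.05, adjusted p = 7.82e-19). The siACLY levels of KRT8 and KRT18 were not called against siControl (0.08 (adjusted p = 0.112) and -0.01 (adjusted p = 0.873)), so the separation of KRT8 and KRT18 lay in siACO1, at -0.83 and -0.78. KRT19 instead moved on both sides of siControl, by 0.67 in siACLY (adjusted p = 1.12e-11) and -0.76 in siACO1 (adjusted p = 1.84e-12). Mesenchymal markers summed to 4598 to 5154 CPM in siACLY and 3818 to 4177 CPM in siACO1, most of it VIM (4592, 4813 and 4270 CPM in siACLY and 3472, 3540 and 3841 CPM in siACO1; log2 difference 0.33 ± 0.04, adjusted p = 4.08e-07). ZEB1, a repressor of epithelial genes, was higher in siACLY as well (0.61, adjusted p = 9.54e-11), whereas AXL, a receptor tyrosine kinase, was lower (-0.25, adjusted p = 6.36e-06) and FN1, fibronectin, was not called (-0.06, adjusted p = 0.814). COL1A2, a collagen chain used as a fibroblast marker, was lower in siACLY at 875, 849 and 826 CPM in siACLY and 1591, 1592 and 1546 CPM in siACO1 (log2 difference -0.89 ± 0.04, adjusted p = 9e-17) and was already at 885 ± 10.2 CPM in siControl. The other 5 fibroblast markers had at most 9 counts in any library, and the part of other cells in this difference was not tested.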

How the data were processed

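Poly(A) RNA of MiaPaCa-2 cells was sequenced, and the authors deposited 1 table of raw counts per gene for 12 libraries. Per the submitters' processing notes, CASAVA, FastQC, Trim Galore, STAR 2.7.0e and DESeq2 were used, with the builds GRCh38 and GRCm39 listed; the counting tool, annotation release and use of strand are not given in the sources used here. The deposited counts were filtered with filterByExpr and scaled with TMM factors. A robust quasi-likelihood fit in edgeR 4.0.16, under R 4.3.3, covered the 12 libraries as 4 groups (8 residual degrees of freedom, common biological coefficient of variation 4.89%). The contrast siACLY minus siACO1 used no control library. Tests were two-sided, adjusted by Benjamini-Hochberg over 16197 genes and called under 0.05. Because counts are relative to each total, a change in RNA per cell would not be seen.

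The comparison, the 24 pathway lists and the heptamers were chosen with earlier results of these data known, and lists are described by counts and medians alone. Genes named by rule are the targets; the 12 largest differences in each direction among called genes whose higher group averaged at least 5 CPM and whose groups did not overlap; the 3 largest called differences per list at an average of at least 1 CPM; and a set chosen by function. Any other gene named was chosen after its values were seen. Some genes that the rule names are left out of the text and are not reported here. Reads of 15 of the 107 genes are marked uncertain, because at least 20% of their exon bases overlap another gene or 20% of their 31-base stretches occur in other genes of GENCODE 29. Coordinates are from GENCODE 29 on GRCh38, which may differ from the annotation behind the counts. The scripts were tested on simulated data. Alternatives were DESeq2 1.42.0, median-of-ratios factors, library totals, other filters, the 6 libraries alone, a replicate block, a stricter threshold and each library left out.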

Additional observations from a re-analysis of the deposited data

How the results depend on the processing

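Across 14 alternative settings, 5126 (adjusted p under 0.01) to 6874 genes were called, 49.8% to 51.5% of them higher in siACLY. DESeq2 called 6491, of which 6465 were also called in edgeR with the same sign. Asking for at least 10 counts in every library gave 453 genes at least 2-fold apart, 319 higher and 134 lower in siACLY, and list medians of 0.56 (serine and one-carbon) and 0.014 (interferon). With the 6 libraries alone the medians were 0.032 (interferon) and 0.0089 (other iron handling). Replicate numbers were not used as pairs in the main fit. Deviations of same-numbered libraries correlated at 0.011, 0.062 and 0.061, and those of differently numbered libraries at -0.072 to 0.011, so a weak pairing cannot be told from none. A replicate block called 6874 genes, 3479 higher and 3395 lower. With 1 library left out, 6017 to 6870 genes were called, and list medians ran from -0.049 to 0.064 (acetyl-CoA supply), -0.090 to -0.020 (fatty acid synthesis), -0.13 to -0.052 (DNA replication), 0.0054 to 0.046 (other iron handling), -0.060 to 0.0070 (iron-sulfur clusters), 0.30 to 0.39 (amino acid transporters), 0.038 to 0.096 (NRF2 targets), -0.029 to 0.019 (immediate early genes), -0.0062 to 0.15 (NF-kappaB), -0.020 to 0.064 (histone acetylation), 0.14 to 0.26 (hypoxia) and -0.23 to -0.042 (mitochondrially encoded). The sign of 2 genes that were not called changed: IDH1 was 0.018 without siACLY replicate 1 and 0.023 without siACO1 replicate 3 (range -0.031 to 0.023), and FASN was -0.014, -0.015 and -0.070 without siACLY replicates 1 and 3 and siACO1 replicate 3 (range -0.070 to 0.062). Of 1494 values of named genes under the alternatives, 1483 kept their direction and their side of the threshold, 5 lost the call (among them 1 for AKR1C2 and 3 for HMGCS1, of which 1 at an adjusted p under 0.01) and 1 gained it (SLC25A1). The causes were not tested. Precision is limited by 3 libraries per group and, for genes with few counts, by depth.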

Other observations

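Gene families outside the pathway lists were looked at after their leading members had appeared among the largest differences, so they are descriptions chosen with the values seen. Of 10 metallothioneins, small proteins that bind zinc and copper and are induced by metals, 5 passed the filter on low counts. Of those 5, 5 were lower in siACLY, beside 20.7% of all genes, with a median log2 difference of -0.75. MT2A, the most abundant, measured 1174, 1220 and 1362 CPM in siACLY and 1676, 1688 and 2127 CPM in siACO1 (log2 difference -0.55 ± 0.11, adjusted p = 0.00337), and MT1X measured 46.1, 52.8 and 44.1 CPM in siACLY and 88.5, 93 and 91.5 CPM in siACO1 (log2 difference -0.93 ± 0.06, adjusted p = 1.26e-13). Neither siACLY level was called against siControl (0.01 (adjusted p = 0.975) and -0.13 (adjusted p = 0.0942)), so siACO1 was the group that stood higher, by 0.55 and 0.81. Members of this family share sequence, and their reads may be divided among them.

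Histone genes gave 0 higher and 14 lower in siACLY among 33 tested of 73 listed, with a median of -0.55. The shares were 0% and 42.4%, beside 21.4% and 20.7% of all genes. In either direction 42.4% were called, beside 42.1% of all genes. Most replication-dependent histone messages lack a poly(A) tail, and these libraries were made from poly(A) RNA. H2BC12 measured 26, 26.3 and 29.5 CPM in siACLY and 66.2, 66.4 and 77.3 CPM in siACO1 (log2 difference -1.36 ± 0.07, adjusted p = 4.85e-16), and both knockdowns exceeded the siControl mean of 16.2 ± 0.502 CPM. Each siACO1 library was above each siACLY library. Against siControl, 18 of the 33 were higher and 0 lower in siACO1, and 10 were higher and 4 lower in siACLY. Of all genes, 17.8% were higher and 19.3% lower in siACO1, and 18.4% were higher and 18.3% lower in siACLY.

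Of 50 keratins 10 were tested, and 6 were higher and 1 lower in siACLY (60% and 10%, beside 21.4% and 20.7% of all genes). The higher ones were the markers KRT8, KRT18 and KRT19 together with KRT13, KRT15 and KRT16, and KRT10, KRT81 and KRT86 were not called. KRT16, a keratin of stressed epidermis, measured 2.61, 3.18 and 2.89 CPM in siACLY and 0.121, 0.13 and 0.193 CPM in siACO1 (log2 difference 4.23 ± 0.34, adjusted p = 2.97e-11), whereas KRT80 was lower in siACLY at 172, 167 and 165 CPM in siACLY and 311, 314 and 313 CPM in siACO1 (log2 difference -0.90 ± 0.04, adjusted p = 6.3e-16). Collagens were split, 5 higher and 8 lower in siACLY among 18 tested of 44 listed (27.8% and 44.4%, beside the same shares of all genes). COL17A1, which anchors epithelial cells to the basement membrane, measured 125, 128 and 127 CPM in siACLY and 66.4, 63.7 and 66.3 CPM in siACO1 (log2 difference 0.95 ± 0.05, adjusted p = 4.85e-16), and the fibrillar chain COL5A2 858, 847 and 854 CPM in siACLY and 1106, 1110 and 1025 CPM in siACO1 (log2 difference -0.34 ± 0.04, adjusted p = 5.01e-08). Besides TET1, TET3 was lower in siACLY at 28.7, 27.3 and 29.3 CPM in siACLY and 57.4, 54.6 and 41.6 CPM in siACO1 (log2 difference -0.84 ± 0.08, adjusted p = 5.92e-08), and TET2 was not called (-0.23 ± 0.10, adjusted p = 0.0539).

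Several genes of universal use are listed with almost no counts in all libraries, among them LDHB, VARS1, HMOX2, SIRT2 and PCK2 at 0, SESN2 at 1 at most and LDHA at 4 at most. These values describe the deposited table and set no limit on expression, since how reads were assigned to genes is not given in the sources used here.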
